A study of Mus musculus with 24 samples.

Results

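The genes of megakaryocytes and platelets studied here are 9: Pf4, Itga2b, Gp9, Gp1ba, Gp1bb, Gp5, Gp6, Ppbp and Vwf. They were picked by gene name, with no rule on their values, although earlier results of these data were known, and each of the 9 names had 1 row among the 46078 genes of the spleen table. All 9 were among the 16557 genes with a mean level of at least 3.32, the log2 of 10, which were tested. The samples were spleens of 24 male C57BL/6J mice, taken when treatment ended. The labels give an age of 20 weeks, which the paper states for the time of injection. All 24 mice had been injected with GFP-expressing BCR-ABL leukemia cells and are labelled as B-ALL, so that there is no uninjected control. The 4 groups held 6 mice each. FMD + VC mice received a fasting mimicking diet together with vincristine (VC), a drug that blocks microtubule assembly. AL + VC mice were fed ad libitum and received vincristine, FMD mice received the diet and vehicle, and AL mice were fed ad libitum and received vehicle. Each mouse gave 1 library of total RNA. The labels give all mice as male, although Xist, a non-coding RNA of X inactivation in female cells, had rlog levels from 10.45 to 15.68. Without counts it is unknown whether the libraries with the lowest levels held reads of Xist. The values are regularized log2 (rlog) levels made from read counts. They are not scaled by gene length, so levels are compared between mice and not between genes.

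Megakaryocytes are large, polyploid cells that release platelets into the blood. In mice they reside in the bone marrow and also in the red pulp of the spleen, where blood formation goes on in adult life. Platelets hold little RNA of their own, made by the megakaryocyte, and carry the receptors and granules through which they stick to a damaged vessel, become activated and clump. Adhesion starts when the receptor complex GPIb-IX-V holds on to von Willebrand factor (Vwf). Collagen then acts through glycoprotein VI (Gp6), and the integrin whose alpha subunit is Itga2b binds fibrinogen and links platelets together. Pf4 and Ppbp encode chemokines that are stored in alpha granules.

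In the annotation of GENCODE for GRCm38 the chemokine genes Ppbp (chr5:90768518-90770063) and Pf4 (chr5:90772435-90773383) lie on the plus strand, 2371 bases apart. The GPIb-IX-V genes are spread over 3 chromosomes, with Gp9 at chr6:87778072-87779768, Gp1ba at chr11:70639122-70642036, Gp1bb at chr16:18620317-18622403 and Gp5 at chr16:30307685-30310779. Itga2b lies at chr11:102453297-102470122, Gp6 at chr7:4363965-4397744 and Vwf at chr6:125546774-125686679. Of the 2087 exon bases of Gp1bb, 1902 (91.1%) are also exon bases of Sept5, a gene on the same strand, and 867 (41.5%) of another gene, Gm49601. With the counting mode the authors used, reads that lie in the exons of more than 1 gene are not counted, so the values of Gp1bb may rest on a small part of the gene and are uncertain. The exons of the other 8 genes are shared with no other gene.

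The DNA before the RefSeq start of the genes that fell in FMD + VC against AL is shown as a description, and shared control was not tested. RefSeq promoters (GRCm38.p6) were matched for 8 of the 9 genes. The 250 bases before the start were searched on both strands for GATAA, the core bound by GATA factors such as Gata1, and for AGGAAG, a core bound by Ets factors such as Fli1. These motifs do not overlap in the windows shown. Of the 8 windows, 4 held GATAA and 5 held AGGAAG, against 23.02% and 29.15% of the windows of 27025 genes. These counts use all 250 bases, of which GENCODE places 180 in exons for Itga2b and 250 for Gp1bb. The 4 genes whose fall passed the test are given below, 5′ to 3′ on the strand of the gene, with both motifs in capitals. The windows are chr5:90772185-90772434 (plus strand) for Pf4, chr11:70638872-70639121 (plus strand) for Gp1ba and chr16:30310782-30311031 (minus strand) for Gp5. For Itga2b exon bases of GENCODE cover 180 of the 250 bases, and only the 59 bases at chr11:102469884-102469942 (minus strand) next to the RefSeq start are shown. By the GENCODE annotation these 59 bases lie inside Itga2b and not before its start.
Pf4: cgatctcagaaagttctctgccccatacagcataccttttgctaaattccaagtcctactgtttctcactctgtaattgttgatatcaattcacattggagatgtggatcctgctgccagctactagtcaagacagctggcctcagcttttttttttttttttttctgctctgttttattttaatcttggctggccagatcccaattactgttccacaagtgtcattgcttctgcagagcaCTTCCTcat
Gp1ba: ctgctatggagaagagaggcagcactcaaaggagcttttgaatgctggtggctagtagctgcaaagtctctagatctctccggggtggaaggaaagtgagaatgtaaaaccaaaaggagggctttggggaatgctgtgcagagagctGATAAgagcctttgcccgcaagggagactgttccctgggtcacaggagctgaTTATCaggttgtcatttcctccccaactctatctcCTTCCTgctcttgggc
Gp5: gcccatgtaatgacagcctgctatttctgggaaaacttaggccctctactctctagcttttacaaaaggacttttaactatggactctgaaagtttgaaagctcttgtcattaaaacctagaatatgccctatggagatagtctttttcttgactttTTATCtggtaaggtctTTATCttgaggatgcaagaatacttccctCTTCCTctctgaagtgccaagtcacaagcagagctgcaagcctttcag
Itga2b: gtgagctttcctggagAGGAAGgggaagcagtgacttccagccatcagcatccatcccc
A match of letters is a description of the sequence, and no binding was measured here.

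Pf4 averaged 7.97 ± 0.68 in FMD + VC mice, 8.66 ± 1.14 in AL + VC mice, 8.93 ± 0.54 in FMD mice and 9.01 ± 0.35 in AL mice (rlog, SD, n = 6 each). FMD + VC had the lowest mean of the 4 groups for all 9 genes. The mean was highest in AL mice for 7 of the 9 genes, the others being Gp1bb, highest in FMD, and Gp6, highest in AL + VC. In the order of the means, AL + VC came next after FMD + VC for 6 genes and FMD for Gp6, Ppbp and Vwf. FMD + VC did not pass the test against the group next above it for any of the 9 genes. The gaps between neighbours among AL + VC, FMD and AL were at most 0.29, less than the SD within AL + VC mice. For all 9 genes the spread was widest in AL + VC mice and narrowest in AL mice.

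**Figure D1:**
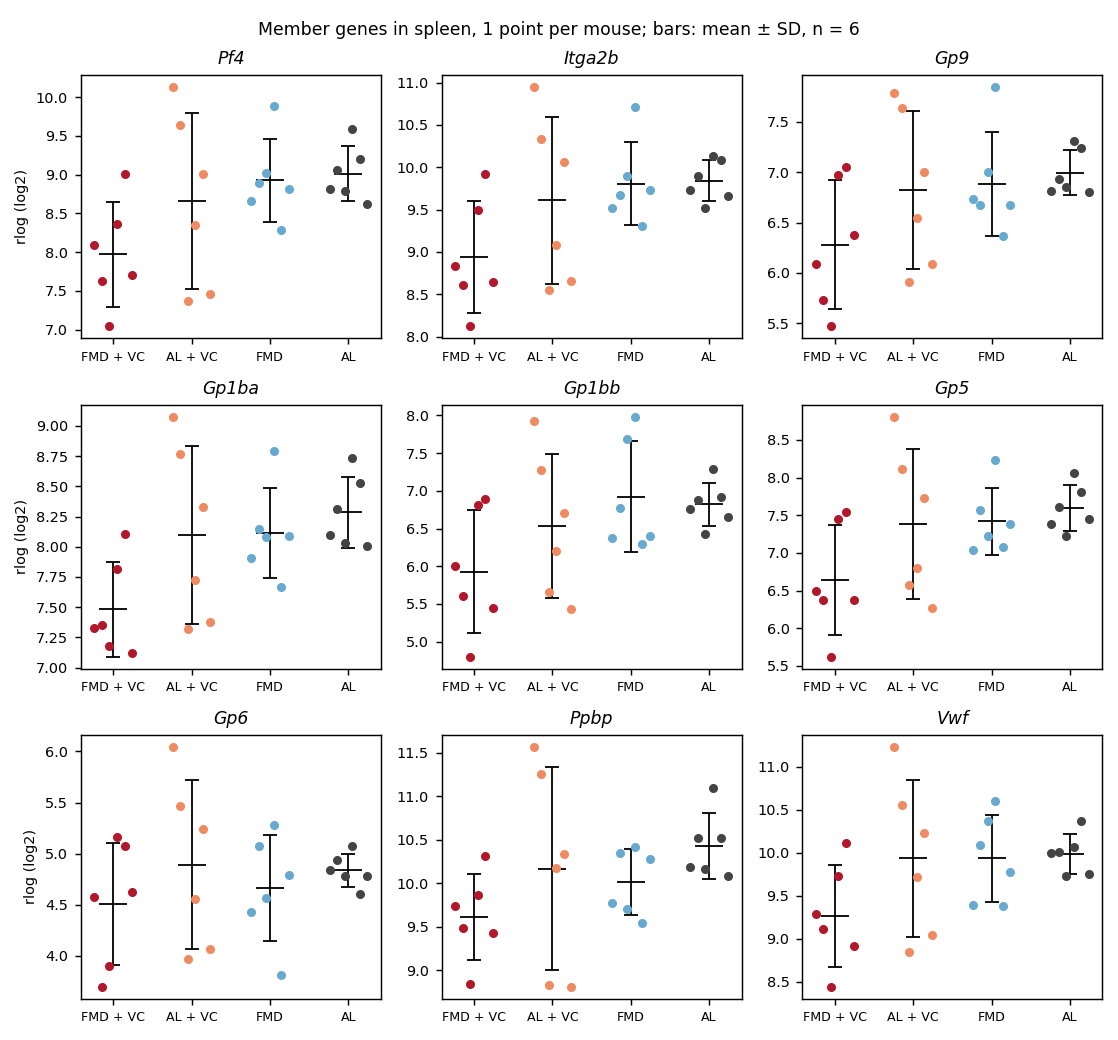
Levels (rlog, log2) of the 9 genes in each mouse, with FMD + VC, AL + VC, FMD and AL from left to right; each point is 1 mouse and bars are the mean ± SD of 6 mice. For Pf4 the FMD + VC mice lie between 7.04 and 9.00 and the AL mice between 8.62 and 9.59.

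The comparison of FMD + VC with AL asks what the combined treatment left in the spleen relative to injected mice without either treatment. Of the 9 genes, 4 were lower in FMD + VC spleens, namely Pf4, Itga2b, Gp1ba and Gp5 (limma, adjusted p under 0.05), and the other 5 did not pass. Of all genes tested, 20.0% were called lower and 19.5% higher. The median log2 fold change of the 9 genes was -0.81, against -0.03 over all genes tested. With an unadjusted p under 0.05 there were 8 genes, each lower, against 25.6% of all genes tested.

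Of the alpha granule chemokines, Pf4, which binds heparin, ran from 7.04 to 9.00 (median 7.90) in FMD + VC mice and from 8.62 to 9.59 (median 8.94) in AL mice. Of the 6 FMD + VC mice, 5 were below every AL mouse, and only mouse 45 lay within the AL range. The log2 difference from AL mice was -1.04 ± 0.39 (SE), with a limma adjusted p of 0.0396. Ppbp, the precursor of a neutrophil-attracting chemokine, ran from 8.84 to 10.32 (median 9.61) in FMD + VC mice and from 10.08 to 11.10 (median 10.35) in AL mice. Again mouse 45 alone lay within the AL range. Ppbp did not pass, its log2 difference being -0.81 ± 0.37 (SE) and its limma adjusted p 0.0813.

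Itga2b, the alpha subunit of the platelet fibrinogen receptor, ran from 8.12 to 9.92 (median 8.74) in FMD + VC mice and from 9.52 to 10.13 (median 9.82) in AL mice. The FMD + VC mice 21, 29, 30, 42 and 46 were all below the lowest AL mouse. The log2 difference from AL mice was -0.90 ± 0.35 (SE), with a limma adjusted p of 0.0440.

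Within the GPIb-IX-V complex, Gp1ba, the subunit that holds the binding site for Vwf, ran from 7.12 to 8.11 (median 7.34) in FMD + VC mice and from 8.01 to 8.73 (median 8.20) in AL mice. It had the smallest adjusted p of the 9 genes, 0.0186 (limma), and a log2 difference of -0.80 ± 0.26 (SE). Gp5, a subunit that thrombin cleaves, ran from 5.62 to 7.55 (median 6.44) in FMD + VC mice and from 7.23 to 8.06 (median 7.53) in AL mice. In Gp5, mice 42 and 45 of FMD + VC lay among the AL mice and the other 4 lay below them. The log2 difference from AL mice was -0.95 ± 0.36 (SE), with a limma adjusted p of 0.0422. Gp9, which the complex needs to reach the cell surface, ran from 5.47 to 7.05 (median 6.23) in FMD + VC mice and from 6.81 to 7.31 (median 6.89) in AL mice. Its log2 fold change was -0.71 and did not pass (adjusted p = 0.0740 from limma). Gp1bb, which is linked to Gp1ba by disulfide bonds, ran from 4.80 to 6.89 (median 5.80) in FMD + VC mice and from 6.43 to 7.28 (median 6.82) in AL mice. It did not pass either, at -0.90 (adjusted p = 0.0774 from limma). For Gp9 and Gp1bb mice 42 and 45 were again the FMD + VC mice within the AL range.

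Vwf, the adhesive protein that megakaryocytes and endothelial cells make, ran from 8.44 to 10.12 (median 9.20) in FMD + VC mice and from 9.73 to 10.36 (median 10.001) in AL mice. Its log2 fold change of -0.72 did not pass (adjusted p = 0.0834 from limma). Gp6, the collagen receptor, had the smallest difference, with 3.70 to 5.16 (median 4.60) in FMD + VC mice and 4.61 to 5.08 (median 4.81) in AL mice. Mouse 42 was above every AL mouse for Gp6, and the log2 fold change was -0.33 (95% interval -0.99 to 0.32, adjusted p = 0.413 from limma). The regularized logarithm understates changes of genes with few reads.

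Exact permutation tests of the difference between the 6 FMD + VC and the 6 AL mice (two-sided, over all regroupings) gave p = 0.008658 for Pf4, Gp1ba and Ppbp, p = 0.01732 for Itga2b, p = 0.02597 for Gp5 and p = 0.2597 for Gp6, unadjusted, where the smallest p the design allows is 0.002165. None of the 9 genes had FMD + VC mice wholly below the AL mice, and the share of all genes without overlap was not counted. The calls depend on single mice. Without FMD + VC mouse 21, 29, 30 or 46, or AL mouse 3, 25 or 32, 1 of the 9 genes was called, Gp1ba, and without AL mouse 33 there were 2. Without FMD + VC mouse 45 there were 7, and without mouse 42 there were 6. Gp1ba was called in each of the 12 fits that left out a mouse of these groups (adjusted p from 0.00893 to 0.0447, limma). With only these 2 groups in the fit 8 of the 9 genes were called, in an error that leaves out the spread of AL + VC. For this fit and those without a mouse, the share of all genes called is not given here. The counts therefore do not show whether the 9 genes changed more than other genes. In whole spleen, fewer megakaryocytes, less RNA per megakaryocyte and a larger share of other cells cannot be told apart. For its autophagy genes in these spleens, the paper cautions that expression might be confounded by leukemia burden. That burden was higher in the AL and FMD groups than in those given vincristine.

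**Figure D2:**
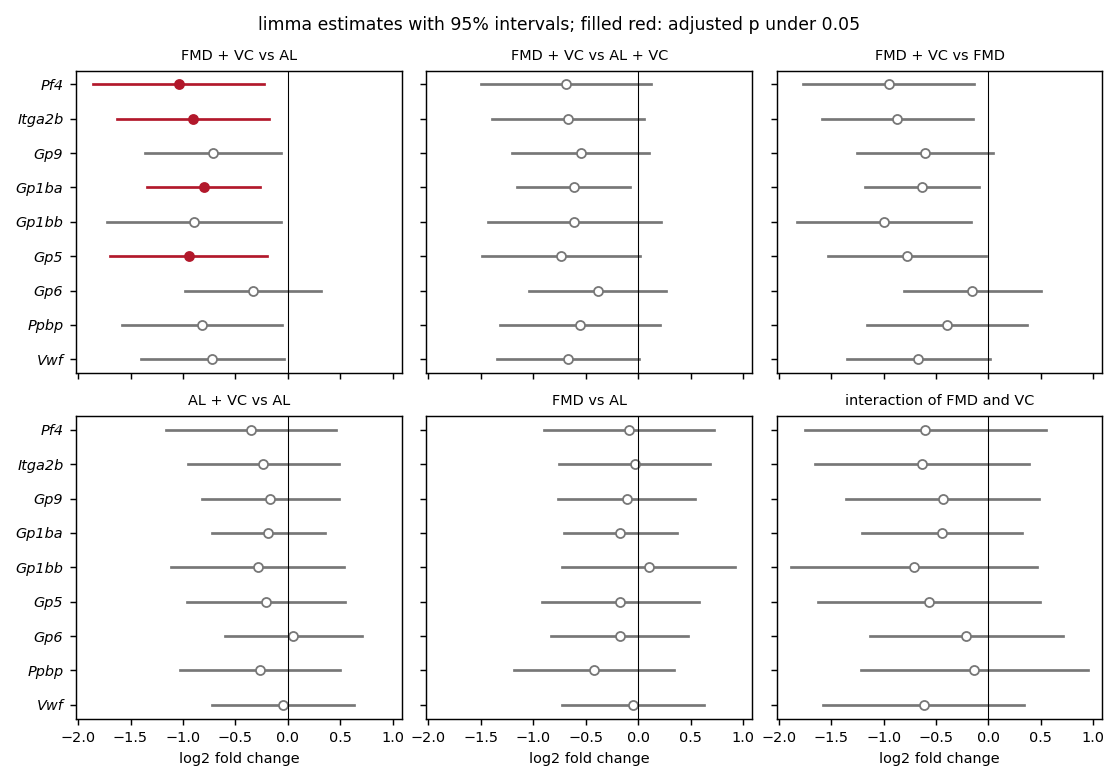
Log2 fold changes of the 9 genes from limma in 5 comparisons and the interaction of diet and vincristine, with 95% intervals; filled red points have an adjusted p under 0.05. Pf4, Itga2b, Gp1ba and Gp5 are filled in FMD + VC against AL, and no point is filled in the other panels.

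The comparison of FMD + VC with AL + VC asks what the diet adds to vincristine. None of the 9 genes was called, and none of all genes tested was (0% lower, limma). All 9 estimates were below 0, with a median of -0.62 against -0.01 over all genes, and they ran from -0.74 in Gp5 to -0.39 in Gp6. Without AL + VC mouse 13 the median was -0.39, and with the mean of the neutrophil list as a covariate 8 of the 9 estimates were above 0 (median 0.09). That covariate was added after the data were seen and was the marker list closest to the 9 genes, so no conclusion is drawn from it. With an unadjusted p under 0.05 there was 1 gene, Gp1ba (log2 difference -0.62 ± 0.26 SE, limma adjusted p 0.427), against 5.07% of all genes tested. For Gp1ba the AL + VC mice ran from 7.32 to 9.08 (median 8.03), and 4 of the 6 FMD + VC mice lay within that range. In exact permutation tests (two-sided) the 9 genes had p from 0.1039 to 0.3766.

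Setting FMD + VC against FMD asks what vincristine adds to the diet. None of the 9 genes passed, whereas 10.9% of all genes tested were called lower and 12.6% higher (limma). The median of the 9 genes was -0.67, and Pf4 (-0.95), Itga2b (-0.87), Gp1ba (-0.63), Gp1bb (-0.995) and Gp5 (-0.78) had an unadjusted p under 0.05, against 18.3% of all genes tested. Their adjusted p-values from limma lay between 0.0728 and 0.121. The estimate nearest to 0 was that of Gp6, at -0.16. For Pf4 the FMD mice ran from 8.28 to 9.89 (median 8.85), and 4 of the 6 FMD + VC mice were below all of them. Without mouse 45 of FMD + VC 4 genes were called, Pf4, Itga2b, Gp1ba and Gp1bb, and without mouse 42 there was 1, Gp1bb. The share of all genes called in those fits is not given here.

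For vincristine alone, AL + VC against AL, none of the 9 genes passed with either p, where 2.53% of all genes tested were called lower, 3.92% higher and 13.9% had an unadjusted p under 0.05 in the lower direction (limma). The median of the 9 genes was -0.21, from -0.35 in Pf4 (95% interval -1.16 to 0.46) to 0.05 in Gp6. With weights per library, and likewise with Xist as a covariate, 8 of the 9 estimates changed sign. AL + VC mice spread on both sides of the AL mice. The mean deviation of the 9 genes from their means over 24 mice was 1.36, 0.86 and 0.37 in AL + VC mice 13, 14 and 37, and -0.92, -0.24 and -0.90 in mice 17, 18 and 41, while the AL mice ran from 0.02 to 0.67.

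For the diet alone, FMD against AL, none of the 9 genes passed with either p, where 0% of all genes were called lower and 1.91% had an unadjusted p under 0.05 in the lower direction (limma). The median was -0.11, from -0.42 in Ppbp (95% interval -1.18 to 0.34) to 0.10 in Gp1bb. The interaction of diet and vincristine tests whether the difference of FMD + VC from AL departs from the sum of the single treatments. It was called for none of the 9 genes, nor for any gene tested (0% lower, and 1.43% lower with an unadjusted p under 0.05). Its estimates ran from -0.71 in Gp1bb to -0.13 in Ppbp, and their adjusted p was 0.9985 for each (limma). For Pf4 the interaction was -0.60 with a 95% interval of -1.75 to 0.55, which includes 0 and differences as large as the fall in FMD + VC against AL. The comparisons share mice, so they are not independent of each other.

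The 9 genes rose and fell together from mouse to mouse. Over 24 mice the 36 pairs had a median Pearson r of 0.93, from 0.78 for Gp1bb with Gp6 to 0.98 for Pf4 with Itga2b, and after group means were subtracted the median was 0.92. Vwf, the gene that endothelial cells share, had an r of 0.96 with Itga2b. In the FMD + VC group the mean deviation was 0.04 and 0.30 in mice 42 and 45, and -0.54, -0.86, -1.32 and -0.74 in mice 21, 29, 30 and 46.

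**Figure D3:**
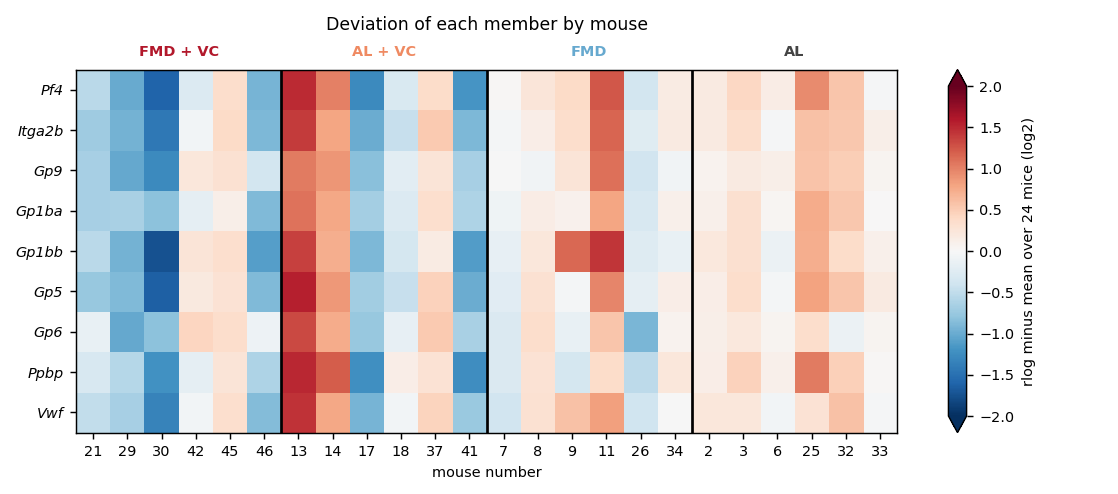
Deviation of each gene (rows) from its mean over 24 mice, on the log2 scale, in each mouse (columns, by mouse number) of FMD + VC, AL + VC, FMD and AL from left to right; red is above and blue below the mean. Mouse 30 of FMD + VC (mean deviation -1.32) and mouse 13 of AL + VC (1.36) are blue and red across all 9 rows.

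Of the genes whose levels over the 24 mice were most like the mean of the 9, 9 are named here. They included Alox12 (r = 0.99), the 12-lipoxygenase of platelets, and Tubb1 (0.98), the beta-tubulin of megakaryocytes and platelets. They were followed by Thbs1 (0.97), which encodes thrombospondin of alpha granules, Slc6a4 (0.96), the serotonin transporter, F5 (0.96), coagulation factor V, and Treml1 (0.96), a receptor of alpha granule membranes. G6b (0.95), an inhibitory receptor of platelets, Pde5a (0.95), a cGMP phosphodiesterase, and P2rx1 (0.94), an ATP-gated channel, were the others. Spearman's rho lay between 0.90 for P2rx1 and 0.99 for Alox12. After group means were subtracted 7 of these 9 stayed among the most alike, with Mfap3l and F13a1 in place of Pde5a and P2rx1. Tubb1 and Treml1 are known markers of this lineage outside the 9 genes. Only genes above the minimum level were ranked, so their levels are no separate check of the label.

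Of 56 further genes tested in 8 lists of megakaryocyte and platelet function, 13 (23.2%) were lower and 12 (21.4%) higher in FMD + VC than in AL, with a median log2 fold change of -0.21. These shares are near those of all genes tested, 20.0% lower and 19.5% higher. Many of them are also active in other cells of the spleen. Among the transcription factors of megakaryocytes, 4 of 10 were lower: Tal1 (-2.27), Nfe2 (-2.24), Gfi1b (-2.08) and Gata1 (-2.01), with adjusted p from 0.00335 to 0.0187 (limma). All 4 also serve erythroid cells. Fli1 (0.64), Mecom (0.77) and Meis1 (0.56) were higher, Fli1 being active in B cells and endothelial cells as well. Runx1, at -0.20, did not pass.

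The receptors for soluble agonists had 5 of 8 lower and none higher, with a median of -0.53. These were the ADP receptor P2ry1 (-1.09), the thrombin receptors F2rl2 (-0.99), F2rl3 (-0.57) and F2r (-0.49), and P2rx1 (-0.74), with adjusted p from 0.0106 to 0.0434 (limma). P2ry12, the ADP receptor that clopidogrel blocks, was at -0.17 and did not pass. Of the integrin list 1 of 4 was lower, Itgb3 (-0.74, adjusted p = 0.0162), the beta subunit that pairs with Itga2b. Fermt3, which encodes kindlin-3 of all blood cells, was at -0.06. Among alpha granule genes Thbs1 (-1.27) and Selp (-1.23), which encodes P-selectin, were lower and Clu (1.11), which encodes clusterin, was higher, of 10 genes tested. F5 was at -0.61 and F13a1 at -0.63, and neither passed.

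In the list of signalling by Gp6 and Clec1b, the kinases Syk (0.91) and Lyn (0.58) were higher and none of 8 was lower. Both kinases also act in B cells. Fcer1g (-0.39), whose protein passes on the signal of Gp6 and also serves Fc receptors of other cells, and Clec1b (-0.49) did not pass. Of 7 cytoskeleton genes 4 were higher, Actn1 (0.51), Myh9 (0.49), Mylk (0.45) and Flna (0.26), all of them also used by other cell types, and Tubb1 was at -0.58 (adjusted p = 0.146). None of the 3 enzymes Ptgs1 (-0.44), Tbxas1 (-0.65) and Alox12 (-0.67) passed, the first being closest (adjusted p = 0.0503). Of 6 other surface proteins Cd226 (0.96), which T cells and NK cells carry too, and Cd9 (0.35) were higher and the cation channel Trpc6 (-0.96) was lower. Treml1 (-0.73) and G6b (-0.62) did not pass. Of the Cxcl genes related to Pf4 and Ppbp only Cxcl5 (-0.39, adjusted p = 0.177) reached the minimum level for testing.

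**Figure D4:**
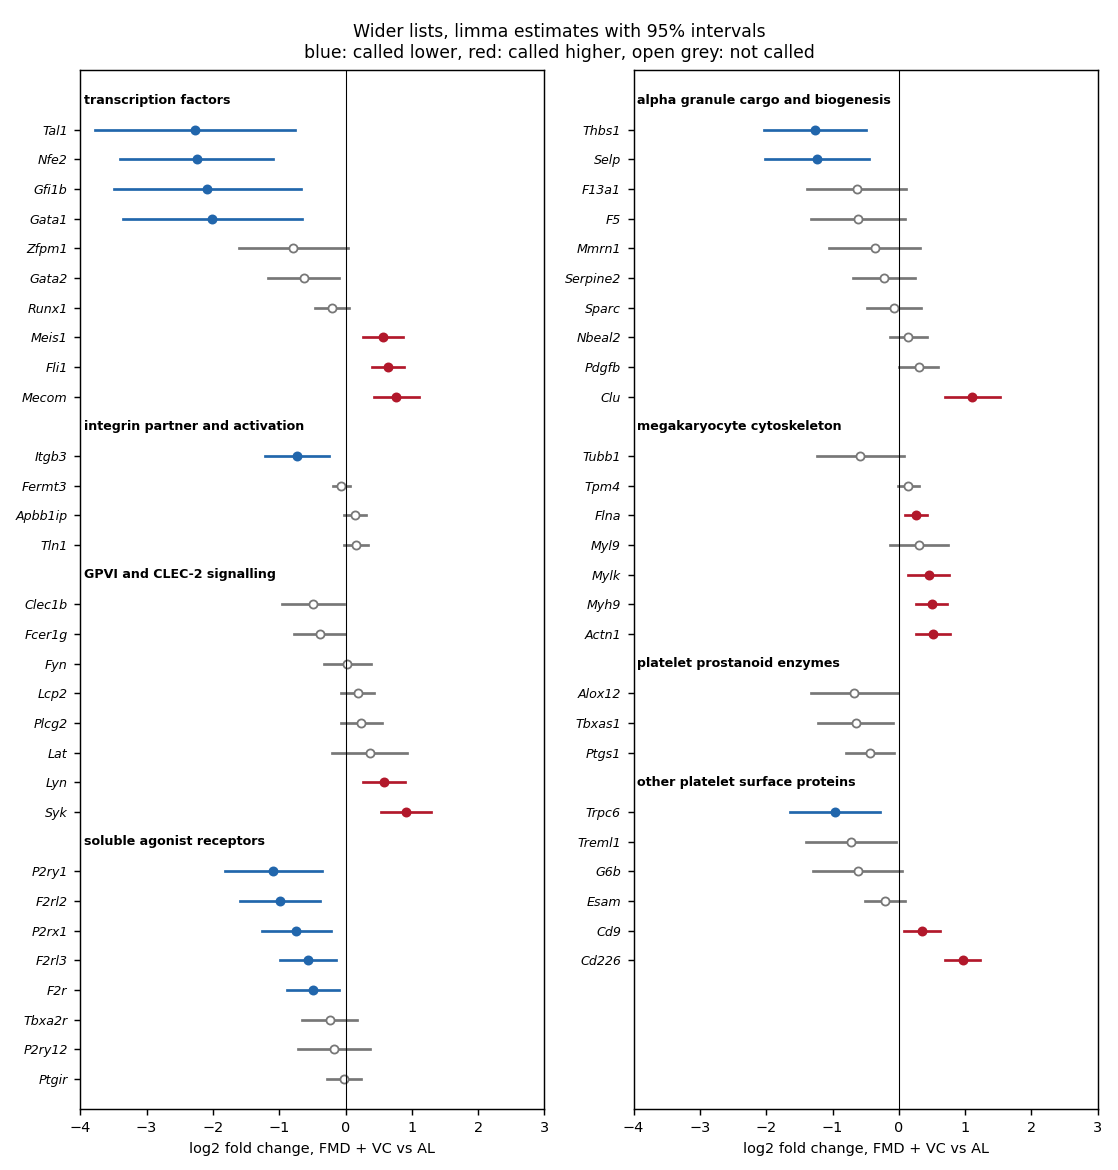
Log2 fold changes of 56 genes of 8 megakaryocyte and platelet lists in FMD + VC against AL from limma, with 95% intervals, sorted within each list. Blue points (13) were called lower, red points (12) higher, and open grey points were not called.

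In FMD + VC against FMD, 4 of the 56 genes were lower, Nfe2 (-1.91), Gfi1b (-1.90), Thbs1 (-1.05) and Itgb3 (-0.68), and 11 were higher. These are 7.1% lower and 19.6% higher, against 10.9% and 12.6% of all genes tested. In AL + VC against AL 4 (7.1%) were higher, Meis1, Syk, Mylk and Cd226, against 3.92% of all genes tested, and none was lower. In the other comparisons no gene of these lists was called.

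Markers of other cells also differed between FMD + VC and AL, where 20.0% of all genes tested were called lower and 19.5% higher. Between FMD + VC and AL, 9 of 15 erythroid genes were lower (median log2 fold change -2.20), 7 of 11 neutrophil genes were lower (-1.60), 3 of 4 mast cell and basophil genes were lower (-1.06) and 10 of 10 cell cycle genes were lower (-1.44). Of the genes of mature B cells 10 of 10 were higher (1.98), and of T cell genes 7 of 10 (1.93). None of 9 macrophage genes passed, and 2 of 6 genes of stem and progenitor cells were higher and 2 lower. Of 8 pre-B cell genes 3 were lower and 1 higher. In FMD + VC against AL + VC and in FMD against AL no gene of these lists was called, nor was any gene tested. In AL + VC against AL no erythroid or neutrophil gene was called, and 9 of 10 mature B cell genes were higher, against 3.92% of all genes tested. Of 12 endothelial genes, whose cells could also supply Vwf, Pecam1, which platelets carry too, was higher (0.53) and the other 11 did not pass (median of the list 0.01). Summed levels of the endothelial list, on the log2 scale, ran from 12.60 to 13.41 in FMD + VC and from 12.42 to 13.24 in AL. Those of the neutrophil list ran from 8.48 to 11.43 in FMD + VC and from 10.09 to 12.31 in AL, and those of the erythroid list from 12.26 to 15.36 in FMD + VC and from 13.50 to 18.47 in AL.

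The mean deviation of the 9 genes was set against the mean level of 10 marker lists over the 24 mice, before and after group means were subtracted. It was closest to the neutrophil list, with r = 0.89 and rho = 0.91 over all mice and r = 0.86 and rho = 0.84 within groups. Without the 2 mice farthest from the median of the neutrophil list r was 0.86 over all mice. For the T cell list r was -0.82 and rho -0.86 (r = -0.79 without the 2 farthest mice), and for the cell cycle list both were 0.76 (r = 0.79). For the erythroid list r was 0.52 and rho 0.53 (r = 0.46), and for the endothelial list 0.26 and 0.42 (r = 0.36). The other 5 lists had r between -0.64 for mature B cells and 0.68 for mast cells and basophils. Both measures of each pair come from 1 library, whose depth is unknown, and these values are descriptions. When the mean of the neutrophil list entered the fit, an alternative added after the data were seen, none of the 9 genes was called between FMD + VC and AL and their median was -0.09. With the mean of the erythroid list in the fit none was called and the median was -0.51. The neutrophil list was the one closest to the 9 genes, so its fit takes up much of their difference whatever the source. No conclusion is drawn from these fits, and the share of all genes called in them is not given here.

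**Figure D5:**
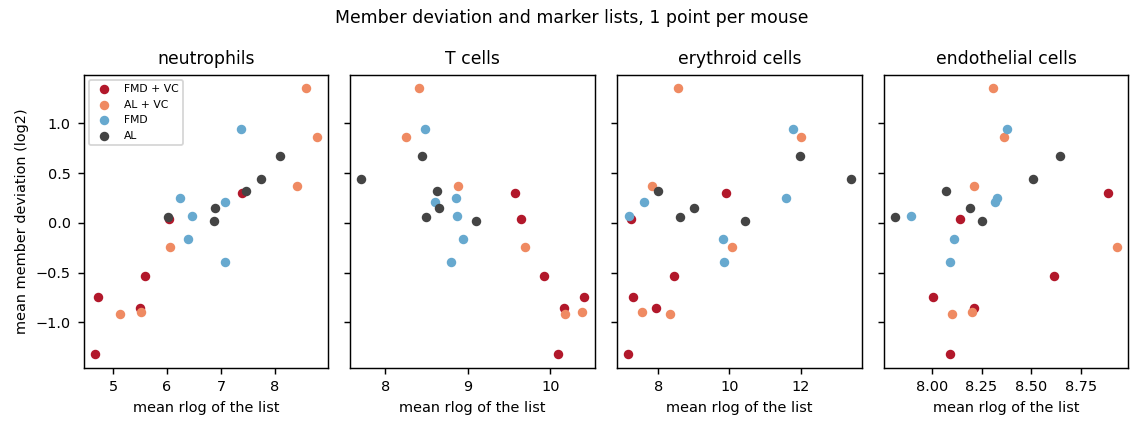
Mean deviation of the 9 genes (vertical axis, log2) against the mean level (rlog) of 4 marker lists in each of the 24 mice, coloured by group. The points follow the neutrophil list upward (r = 0.89) and the T cell list downward (r = -0.82), with a weaker relation to the erythroid (0.52) and endothelial (0.26) lists.

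Xist also differed between FMD + VC and AL. It ran from 10.45 to 12.99 in FMD + VC mice and from 13.88 to 15.68 in AL mice, with no overlap. Mice 42 and 45, in which the 9 genes were highest within FMD + VC, also had its highest Xist levels, 11.98 and 12.99. In AL + VC, mice 13, 14 and 37, with the highest levels of the 9 genes, had 14.98, 15.20 and 14.45, and mice 17, 18 and 41 had 10.68, 10.48 and 11.11. Within AL and FMD the mice with the highest levels went the other way. AL mice 25 and 32 had the highest mean deviations (0.67 and 0.44) and the lowest Xist levels (14.66 and 13.88). FMD mice 11 and 9 had the highest mean deviations (0.94 and 0.25) and the lowest Xist levels (14.33 and 12.43). When Xist entered the fit as a covariate, 0 of all genes tested were called between FMD + VC and AL, the 9 genes included. As Xist did not overlap between these groups, this fit cannot separate Xist from the group, and no conclusion is drawn from it. The part of the T cell and B cell marker differences in the levels of the 9 genes was not tested.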

How the data were processed

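RNA of 24 mouse spleens was sequenced as single-end reads after ribosomal RNA was removed. The authors used HISAT2 2.1.0 to map reads to GRCm38 and HTSeq 0.6.1 for counting (reads over more than 1 gene left out), and deposited regularized log2 values (rlog), their notes naming DESeq2. No source used here gives the strand setting. Their notes also name GRCh38, but gene names are those of mouse. With no counts at hand, depth is unknown, counting intervals cannot be given, and precision rests on the spread between mice. Library medians over tested genes lay between 7.73 and 7.86.

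A minimum mean rlog of 3.32 left 16557 of 46078 genes. These were fitted with limma 3.58.1 (R 4.3.3), 1 coefficient for each group, 20 residual degrees of freedom, a variance trend and Benjamini-Hochberg adjustment at 0.05, after a check on simulated data. The 9 genes, the lists and the tests were chosen with earlier results of these data known. Names that are dates (21 tested rows) or occur more than once (126 rows, Rasgrp2 among them) were not used. Mpig6b and Epb42 were matched through RefSeq synonyms as G6b, a name that an antisense RNA may share, and Epb4.2. Named were the 9 genes, up to 4 genes per wider list with the smallest adjusted p in FMD + VC against AL, genes needed to say what did not pass, 9 of the 10 genes most like the mean of the 9, and Xist. A further gene is not reported here and was left out of the lists. Tal1, Gata1, Gfi1b, F2r and Pecam1 were named after their values were seen, to complete the counts. Correlations are given as descriptions, without their p. Plots used matplotlib 3.10.9 (Python 3.11.15). Alternatives were no minimum, a minimum of 50, quantile normalization, no variance trend, only the groups compared, weights per library, covariates (erythroid genes, Vpreb1 and Igll1, Xist, and neutrophil genes, added after the data were seen), exact permutation tests, and each mouse left out in turn.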

Additional observations from a re-analysis of the deposited data

How the results depend on the processing

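Counts refer to the 9 genes called lower. Except where stated, the share of all genes called in the same setting is not given. A changed count therefore does not show whether the 9 genes or all genes gained or lost calls. In FMD + VC against AL, 4 were called, and 1 with no minimum and with quantile normalization (Gp1ba in both), 0 with the erythroid, the Vpreb1 and Igll1, the Xist or the neutrophil covariate, 8 with only the groups compared and 9 with weights per library. Leaving out each mouse in turn gave 1 to 7. With weights per library 9 were called in FMD + VC against AL + VC and 7 in FMD + VC against FMD, where 3 were called with only the groups compared and 0 to 4 with each mouse left out. These weights ran from 0.15 to 7.29 and raised the number of all genes called between FMD + VC and AL + VC to 4966, against 0. The counts of AL + VC against AL, FMD against AL and the interaction stayed at 0 in every setting run. Of the wider lists 13 genes were called lower in FMD + VC against AL, 26 with weights per library, 2 with the erythroid covariate, and 0 with the Xist or the neutrophil covariate, and from 8 (without FMD + VC mouse 30) to 20 (without FMD + VC mouse 45) with each mouse left out. The 12 called higher became 0 with the Xist covariate.

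Estimates that changed sign did so without a call. With Xist as a covariate all 9 did so in FMD + VC against AL, 8 in FMD + VC against FMD, 8 in AL + VC against AL, 5 in FMD against AL, and 2 each in FMD + VC against AL + VC and the interaction. With the neutrophil covariate 8 did so in FMD + VC against AL + VC, 5 in FMD against AL, 3 each in FMD + VC against AL and the interaction, and 2 in FMD + VC against FMD. With weights per library 8 did so in AL + VC against AL and 1 in FMD against AL. Some of these values are given. With Xist as a covariate the log2 fold changes in FMD + VC against AL were 0.26 for Pf4, 0.32 for Itga2b, 0.22 for Gp9, 0.0715 for Gp1ba, 0.10 for Gp1bb, 0.35 for Gp5, 0.76 for Gp6, 0.49 for Ppbp and 0.24 for Vwf. In FMD + VC against FMD they were 0.17 for Pf4, 0.19 for Itga2b, 0.12 for Gp1ba, 0.35 for Gp5 and 0.79 for Gp6, in FMD + VC against AL + VC 0.0831 for Gp6, in AL + VC against AL 0.39 for Pf4, and in the interaction 0.25 for Ppbp. With the neutrophil covariate they were 0.26 for Gp6, 0.0327 for Ppbp and 0.0004 for Vwf in FMD + VC against AL, 0.0398 for Gp5 and 0.17 for Gp6 against AL + VC, 0.28 for Gp6 against FMD and 0.43 for Ppbp in the interaction. With the Vpreb1 and Igll1 covariate Gp6 was at 0.0544 against FMD and Ppbp at 0.10 in the interaction. Weights per library gave 0.16 for Pf4 in AL + VC against AL and -0.17 for Gp1bb in FMD against AL. Of 525 values of the 9 genes over 6 comparisons, 75 changed sign, 34 of them with Xist and 21 with the neutrophil covariate, whose cause was not tested. Levels of Xist did not overlap between FMD + VC and AL, so a fit with Xist cannot separate it from the group in that comparison. Gp6 lies under the minimum of 50 and has no value there. The mean deviation of the 9 genes differed by -0.80 between FMD + VC and AL, and by -0.81 with Vwf left out. No paired analysis was possible because no mouse number occurs in more than 1 group.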
